A study of Mus musculus with 4 samples.

Results

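Both CD62Llow subsets of CD8 T cells were set against both CD62Lhigh subsets, gene by gene, on 4 single-colour arrays. Untreated PD-1-/- mice on the C57BL/6 background, aged 1 to 3 months, gave the spleen and lymph node cells, so that every subset lacked PD-1, the inhibitory receptor encoded by Pdcd1, and no wild-type sample was analysed here. On the CD62Lhigh side, P1 was CD44low CD62Lhigh and P2 was CD44high CD62Lhigh. On the CD62Llow side, P3 was CD44high CD62Llow and P4 was CD44low CD62Llow. A gene was higher in CD62Llow cells when the lower of the P3 and P4 levels exceeded the higher of the P1 and P2 levels, and lower in the reverse case. The distance between those deciding arrays is called the gap. Of 22909 genes named on the array, 12703 were bright enough to be compared in at least 1 direction, and 356 had a gap of at least 2-fold. The arrays of a side differ in CD44 and are not replicates, and each subset had 1 array, so no test was possible and each difference compares these arrays only. The sources used here do not say how many animals went into each sorted pool.

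CD62L is the adhesion molecule with which a circulating lymphocyte rolls on the high endothelial venules of lymph nodes. Naive and central memory CD8 T cells carry it. Cells that have met antigen and turned into effector or effector memory cells lose it together with the chemokine receptor CCR7 and the egress receptor S1PR1, and gain chemokine receptors and adhesion molecules for inflamed tissue, granzymes, cytokines and inhibitory receptors. CD44, the receptor for hyaluronan, marks antigen-experienced and memory-phenotype T cells, and a cell low for both CD44 and CD62L falls outside the usual order of naive, central memory and effector memory cells.

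Levels are log2 processed signals relative to the 75th percentile of their own array, always in the order P1, P2, P3, P4, and a difference of 1 is 2-fold. Levels of different genes come from different probes and cannot be set against each other. Between 27825 and 30804 of 56597 probes were well above background per array, with the highest number on P3. Repeated spots of a probe on an array had a pooled SD of 0.0747, which puts a half-width of 0.21 on a difference between arrays at 95% confidence, rising to 0.59 for levels below -3. That error covers the spots and neither the animals nor the sort. All arrays lay on 1 slide, so position on the slide and subset cannot be told apart. Where a dim side was not well above background, its value was raised to the lowest well-measured signal of that array and the gap is a lower bound, written as "at least". In sorted pools, fewer cells carrying a transcript and less of it per cell cannot be told apart.

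The transcript of the CD44 gate followed the labels. Cd44 stood at -1.80, 2.26, 2.11 and -1.24, high in P2 and P3 and low in P1 and P4, with no gap along CD62L. Cd8a lay between 4.77 and 5.07, Cd8b1 between 7.41 and 7.92 and Cd3e between 6.05 and 6.44 on the 4 arrays, so the coreceptor and CD3 transcripts were bright in all subsets. Pdcd1 itself read -3.30, -3.06, 1.76 and 1.70, bright on both CD62Llow arrays and dim on both CD62Lhigh arrays, a gap of 4.76 or 27.1-fold. The position of its probe against the deleted part of the gene was not compared, so this reading checks neither the genotype nor the labels, and its spot lay in a locally bright area of a CD62Llow array.

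At the 2-fold threshold most separated genes were higher in CD62Llow cells. Of 12563 genes well above background on both CD62Llow arrays, 337 (2.68%) were at least 2-fold higher there, and of 11975 genes well above background on both CD62Lhigh arrays, 19 (0.159%) were at least 2-fold lower in CD62Llow cells. The gap was at least 4-fold for 119 of the 337 higher genes and at least 8-fold for 45, against 2 and 0 of the 19 lower genes. Counting every gap above 0 turned the balance, with 2531 genes higher (20.1%) and 3561 lower (29.7%), so the lower side held many small gaps. That balance rested on the scaling: quantile normalization gave 3075 higher and 2915 lower, while the 2-fold counts under it were 329 and 21. Over all compared genes the median difference was -0.05 for P4 minus P1 and -0.06 for P3 minus P2.

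The 2 ways of pairing the subsets on CD44 show how the sides differ. Among the 337 higher genes the median of P4 minus P1 (the CD44low pair) was 2.26 and that of P3 minus P2 (the CD44high pair) was 2.83, and the difference was larger in the CD44high pair for 214 genes. P4 was the lower of the CD62Llow arrays in 286 of them and P2 the higher of the CD62Lhigh arrays in 279, so most gaps are the distance from P2 to P4. P3 and P4 lay within 2-fold of each other in 209 of the 337. Asking only that both matched pairs differ by at least 2-fold gave 515 genes higher (4.1%) and 65 lower (0.543%). Of these, 178 and 46 had a gap under 2-fold, since the arrays of a side differed as well. Leaving out an array loosens the rule, and each array left out raised the lower count by over 2-fold. Without P1 there were 443 higher and 239 lower genes, so that 65.0% of separated genes were higher. Without P2 the counts were 626 and 182, without P3 412 and 44, and without P4 1342 and 441. Background correction by normexp left 182 higher and 4 lower.

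**Figure D1:**
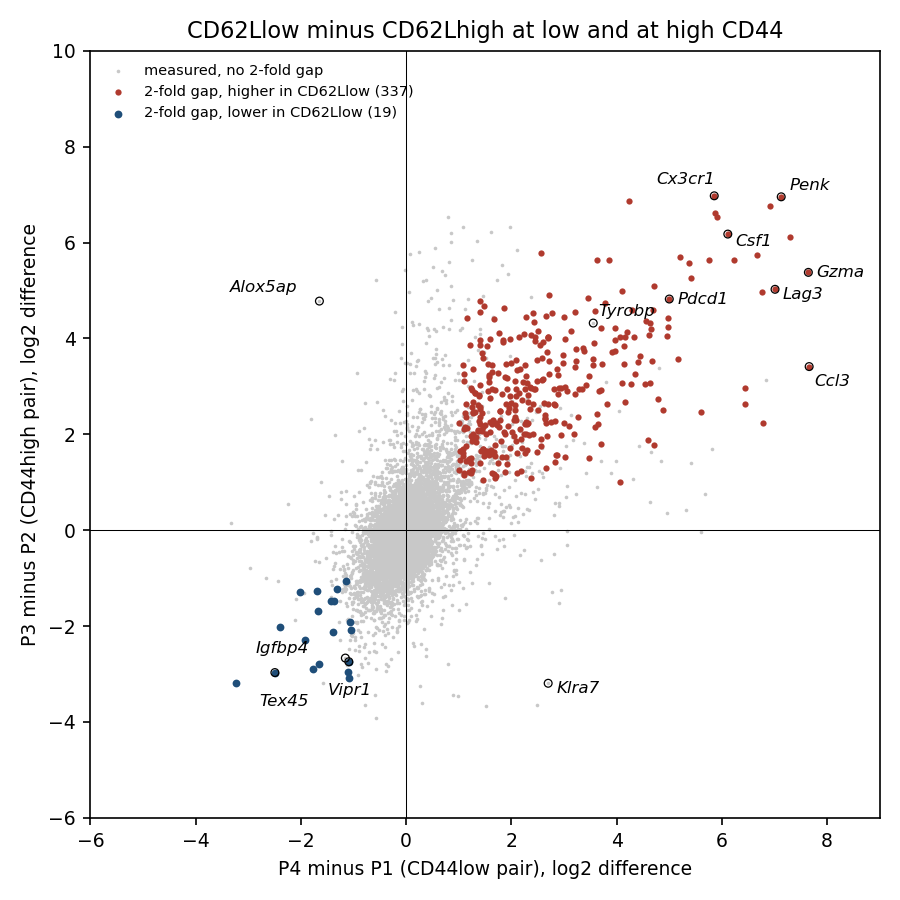
Each point is a gene compared in at least 1 direction, at its log2 difference P4 minus P1 (CD44low pair, horizontal) and P3 minus P2 (CD44high pair, vertical), with values not well above background raised to the array's floor. Red points are the 337 genes with a 2-fold gap higher in CD62Llow, blue points the 19 lower ones and grey points the rest; red points reach far into the upper right, while blue points stay near the origin and Klra7 and Alox5ap lie in the opposite corners.

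The cytotoxic and effector genes gave some of the largest gaps. Granzymes are the serine proteases that killer T cells deliver into their targets. Gzma stood at -0.73, 1.42, 6.80 and 6.91, a gap of 5.38 or 41.6-fold. Gzmb stood at -2.57, -0.64, 5.11 and 4.09, a gap of 4.74 or 26.6-fold, and Gzmk at -6.78, -2.62, 3.50 and 2.62, a gap of 5.24 or 37.9-fold. For all these granzymes P2 lay above P1 and both CD62Llow arrays lay far above P2, and Gzmk was not well above background in P1. Gzmc, a granzyme of strongly stimulated cells, read -4.90, -4.18, -3.17 and -3.70, not well above background in P1. Its gap of 0.48 lay inside the spot error of 0.59 for levels below -3.

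Of 28 effector and cytotoxic genes on the array, 27 were measured and 8 were at least 2-fold higher in CD62Llow cells, 17 had any gap in that direction and 0 had one in the lower direction. Over all genes the shares were 2.68% at 2-fold, 20.1% for any gap in the higher direction and 29.7% for any gap in the lower direction. The list's median differences were 1.32 over 27 genes in the CD44low pair and 1.62 over 28 genes in the CD44high pair. Klrg1, an inhibitory lectin receptor of short-lived effector cells, read -6.77, -4.61, 2.27 and -0.42, a gap of at least 17.9-fold, with P3 far above P4. Fasl, the death ligand, had a gap of 1.74 and Prdm1, which encodes the effector regulator Blimp-1, one of 1.44. S100a4 (1.78) and Lgals3 (2.59), a calcium-binding protein and a galectin of activated T cells, also had gaps past 2-fold, in each case with P3 well above P4. Prf1, which encodes perforin, stood at 1.54, 2.22, 2.87 and 2.31 with a gap of 0.09, inside the spot error. Tbx21, the T-box regulator of effector differentiation, read -0.37, 3.75, 4.06 and 2.45, with P2 above P4 and no gap.

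Secreted factors followed. Csf1, the macrophage growth factor M-CSF, had the largest gap measured on the deciding arrays of both sides, with levels of -4.36, -4.95, 1.59 and 1.75, a gap of 5.95 or 61.8-fold. Its P2 level was not well above background, and its deciding P1 level lay below -3, where the half-width is 0.59. The CD62Llow arrays differed by less than the 0.21 spot error for Csf1. Penk, the precursor of the enkephalin opioid peptides, stood at -5.23 (not well above background), -3.32, 3.63 and 2.46, a gap of 5.78 or 55.0-fold. Ccl3, an inflammatory chemokine, stood at -3.29, 1.20, 4.61 and 4.36, a gap of 3.17. Here P2 was already far above P1, so that the gap was smaller than the difference of 7.66 between P4 and P1. Il10, the anti-inflammatory cytokine, was not well above background on either CD62Lhigh array and read 0.01 in P3 and 0.03 in P4, at least 24.2-fold higher.

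The list of 26 secreted factors held chemokine and cytokine genes and also Penk, which encodes neither. Of these, 19 were measured in the higher direction and 8 of them, Penk included, had a 2-fold gap. Any gap in that direction was seen for 13, and 2 had a gap under 2-fold in the lower direction. The shares over all genes were 2.68%, 20.1% and 29.7%. Ccl4 (gap 1.93), Tnfsf4 (2.42, a bound), Tnfsf11 (1.66, a bound) and Il21 (1.33, a bound) completed the 8. Tnfsf4 and Tnfsf11 encode the OX40 and RANK ligands. Ifng, the signature cytokine of type 1 immunity, read 0.69, 4.67, 6.43 and 5.12, a gap of 0.44, with P2, P3 and P4 all far above P1. Xcl1, the chemokine that draws cross-presenting dendritic cells, read -2.42, 2.76, 3.52 and 3.25, a gap of 0.49, likewise because P2 was high.

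**Figure D2:**
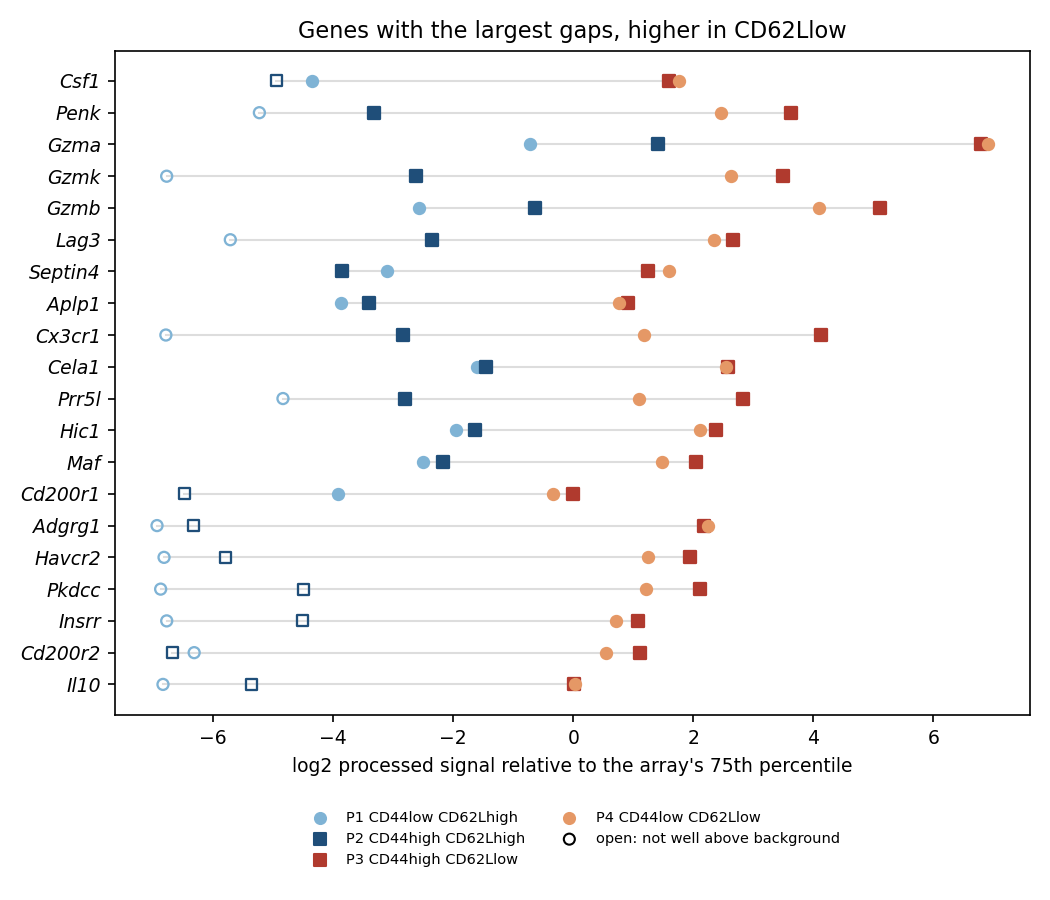
Level on each array, in log2 processed signal relative to the array's 75th percentile, for the genes with the largest measured gaps (Csf1 to Cd200r1) and the largest lower bounds (Adgrg1 to Il10). Circles are CD44low and squares CD44high subsets, blues are CD62Lhigh and reds CD62Llow, and open symbols were not well above background; in every gene shown both red symbols lie to the right of both blue ones, and for Cx3cr1 and Prr5l the P3 symbol lies well beyond P4.

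Receptors for tissue chemokines were next. Cx3cr1, the fractalkine receptor of effector cells in the circulation, stood at -6.79 (not well above background), -2.84, 4.13 and 1.19, a gap of 4.03 or 16.3-fold, graded from P1 through P2 and P4 to P3. Cxcr6, the CXCL16 receptor of liver and resident T cells, stood at 4.08, 3.91, 5.35 and 5.28, a gap of 1.19, with the arrays of each side close together. S1pr5, an egress receptor of effector cells, had a gap of 1.57 and Ccrl2, an atypical receptor that binds chemerin, one of 1.81. These were 4 of the 11 chemokine receptor genes measured in the higher direction, out of 19, beside 2.68% of all genes. Cxcr3, the receptor for interferon-induced chemokines, read 1.73, 5.11, 5.49 and 3.54, which follows CD44 and has no gap. Cxcr4 lay slightly the other way, with a gap of 0.36 in the lower direction.

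Inhibitory receptors and genes of exhausted cells had the highest share past the threshold among the 18 gene lists. All the lists were chosen with earlier results of these data known, so this share and this rank are descriptions only. All 23 were measured, 15 of them (65.2%) had a gap of at least 2-fold and 17 any gap, against 2 with a gap under 2-fold the other way; the share past 2-fold over all genes was 2.68%. The 15 include Pdcd1, the gene targeted in these mice, whose spot lay in a locally bright area of a CD62Llow array. The list's median differences were 2.28 in the CD44low pair and 2.41 in the CD44high pair. Lag3, the receptor for MHC class II that restrains T cells, stood at -5.72 (not well above background), -2.36, 2.67 and 2.34, a gap of 4.70 or 25.9-fold. Havcr2, which encodes TIM-3, was not well above background on either CD62Lhigh array and read 1.94 and 1.24 in P3 and P4, at least 56.7-fold higher. Maf, a transcription factor that drives inhibitory receptor and IL-10 genes, stood at -2.50, -2.17, 2.04 and 1.47, a gap of 3.64 with both arrays of each side close together.

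Further members had smaller gaps of the same sign. Entpd1, the ectonucleotidase CD39 that removes extracellular ATP, stood at -4.35, -2.90, 1.33 and 0.63, a gap of 3.53 or 11.5-fold. Rgs16, a brake on G protein signalling, read -0.56, 1.04, 5.09 and 4.40, a gap of 3.35. Cd200r1, the receptor for the inhibitory ligand CD200, had a gap of 3.58 and Cd200 itself one of 1.89. Tigit (2.46), Ctla4 (1.78), Ptger4 (1.46), Ikzf2 (1.29), Cd38 (1.17), Tox (1.12) and Cd101 (1.08) were also past 2-fold. Tox, the nuclear factor required for exhausted cells, stood at 1.81, 1.37, 3.81 and 2.93, so it was well measured on all 4 arrays and highest in P3. Cd160 (0.89) and Batf (0.72) fell short of the threshold. Btla, another inhibitory receptor, had a gap of 0.32 in the lower direction.

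Genes linked with residence in tissue and with extracellular ATP overlap these lists. Of 19 measured residency genes, 8 were at least 2-fold higher, beside 2.68% of all genes: Osgin1 (gap 2.73), Litaf (2.49), Bhlhe40 (1.88), P2rx7 (1.79), Prdm1, Ahr (1.36), Rgs1 (1.30) and Cxcr6. Bhlhe40, a transcription factor of resident and cytokine-producing cells, stood at -1.30, 0.93, 3.99 and 2.81. Cd69, the defining surface marker of resident cells, lay the other way, at 4.06, 4.29, 3.35 and 3.82 with a gap of 0.24. P2rx7, the ATP-gated channel, stood at -0.49, -0.58, 1.90 and 1.29. With Entpd1 and Cd38 it made 3 of the 12 measured ATP and adenosine genes past 2-fold (2.68% over all genes), while Ada, adenosine deaminase, had a gap of 0.54 in the lower direction. Among regulators of G protein signalling and related receptors, 3 of 18 measured genes passed. The largest bound of all was that of Adgrg1, which encodes the adhesion receptor GPR56 of cytotoxic lymphocytes. It was not well above background in P1 or P2 and read 2.17 and 2.24 in P3 and P4, at least 108-fold higher.

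Of 11 measured genes of the regulatory T cell list, 6 had a 2-fold gap, beside 2.68% of all genes. Il2ra, the high-affinity IL-2 receptor chain CD25, stood at -4.51 (not well above background), -3.02, 0.03 and 0.02, a gap of 3.04, though its spot lay in a locally bright area of a CD62Llow array. Lrrc32, which tethers latent TGF-beta, had a gap of 2.40, and Nrp1, a semaphorin receptor, one of 1.84. Foxp3, the lineage factor of regulatory T cells, was dim on every array, at -3.50, -3.81, -1.57 and -2.50, and its gap of 1.00 lay at the threshold (0.95 under quantile normalization and 0.54 with normexp). Ikzf2 and Ctla4 were the other members and are also on the inhibitory list. Cd4 read -0.40, -0.38, 0.22 and -0.39 and had no gap, and Cd40lg was not well above background on any array. The other CD4 markers listed, Foxp3, Ctla4 and Zbtb7b, each had a gap in the higher direction (20.1% over all genes). Each was also at least 2-fold higher in both pairs (4.1% over all genes). Over the 4 measured CD4 markers the median differences were 1.60 in the CD44low pair and 2.23 in the CD44high pair. The part of CD4 cells in these values was not tested.

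Lists of signalling receptors and early response genes had 1 or 2 members past 2-fold each. The shares were 7.14% for antigen receptor response, 14.3% for costimulatory receptors and 4% for cytokine receptors, beside 2.68% of all genes. Of 28 genes induced by the antigen receptor, all measured, 2 passed 2-fold, Bhlhe40 and Spry1, a feedback inhibitor of Ras signalling (gap 1.68). Another 5 had smaller gaps in the same direction, among them Nr4a2 (0.76) and Irf8 (0.97), and 9 had small gaps in the lower direction, among them Ifrd1 (0.70) and Fosl2 (0.57). Quantile normalization changed those counts to 10 and 4, so no direction is given for this list. Of 14 measured costimulatory receptor genes, Tnfrsf9 and Slamf1 passed. Tnfrsf9, the activation-induced receptor 4-1BB, stood at -0.18, 0.09, 2.73 and 3.63, a gap of 2.64 with P4 above P3. Of 25 measured cytokine receptor genes, Il2ra alone passed, and Il7r had a gap of 0.89 in the lower direction.

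The genes with the largest gaps also included some that stand on no list of T cell genes. Septin4, a cytoskeletal GTPase (gap 4.35), Aplp1, a relative of the amyloid precursor protein (4.17), Cela1, an elastase (4.01), Prr5l, which binds mTOR complex components (3.90), and Hic1, a transcriptional repressor (3.74), were all measured on the deciding arrays of both sides. Prr5l was not well above background in P1. Cela1 stood at -1.61, -1.46, 2.58 and 2.55 and Hic1 at -1.96, -1.63, 2.39 and 2.11, so for both genes the arrays of a side lay close together. Pkdcc, a secreted kinase, was at least 52.2-fold higher, Insrr, a relative of the insulin receptor, at least 37.2-fold and Cd200r2, of the CD200 receptor family, at least 35.0-fold. Members of the CD200 receptor family are close in sequence, and how far a probe tells them apart was not examined. Of the 337 higher genes, 285 were on none of the lists and 113 had gaps that are bounds. Just inside the threshold lay Pou2f2, a B cell octamer factor (gap 1.00, or 0.99 under quantile normalization), and just outside lay Ank3 with a bound of 1.00.

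Genes lower in CD62Llow cells were few and their gaps were small, with a median of 1.22 among the 19. Vipr1, the receptor for vasoactive intestinal peptide, stood at 4.90, 4.93, 2.19 and 3.81, a gap of 1.09 (0.97 under quantile normalization). It was alike in P1 and P2 and lower in P3 than in P4. Maff, a small Maf transcription factor, stood at 0.81, 1.23, -0.86 and -0.23, a gap of 1.04, and Nacc2, a BTB-domain repressor, at 0.13, 0.15, -1.08 and -1.18, a gap of 1.21 with both sides tight. The largest gap was that of Tex45, at -1.92, -2.10, -5.07 and -4.41 (2.31 or 4.97-fold), with both CD62Llow levels below -3. Dyrk4 (1.65), a kinase, Adra2a (1.47), an adrenergic receptor, Serpina3h (1.37), Acsbg3 (1.36), Prg4 (1.30), Tpsb2 (1.22), Cdr2l (1.09), Dct (1.04) and Skor1 (1.03, just inside the threshold) had levels below 0 on every array. Tmem52b had a bound of 1.09, and Irs2, an insulin receptor substrate, lay just outside at 3.80, 3.73, 1.44 and 2.74 with a gap of 0.99. Over the 19 genes P4 was the higher of the CD62Llow arrays in 15. With normexp, Vipr1, Maff and Nacc2 stayed past 2-fold among the lower genes named here, and the others had gaps between 0.30 and 0.92.

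**Figure D3:**
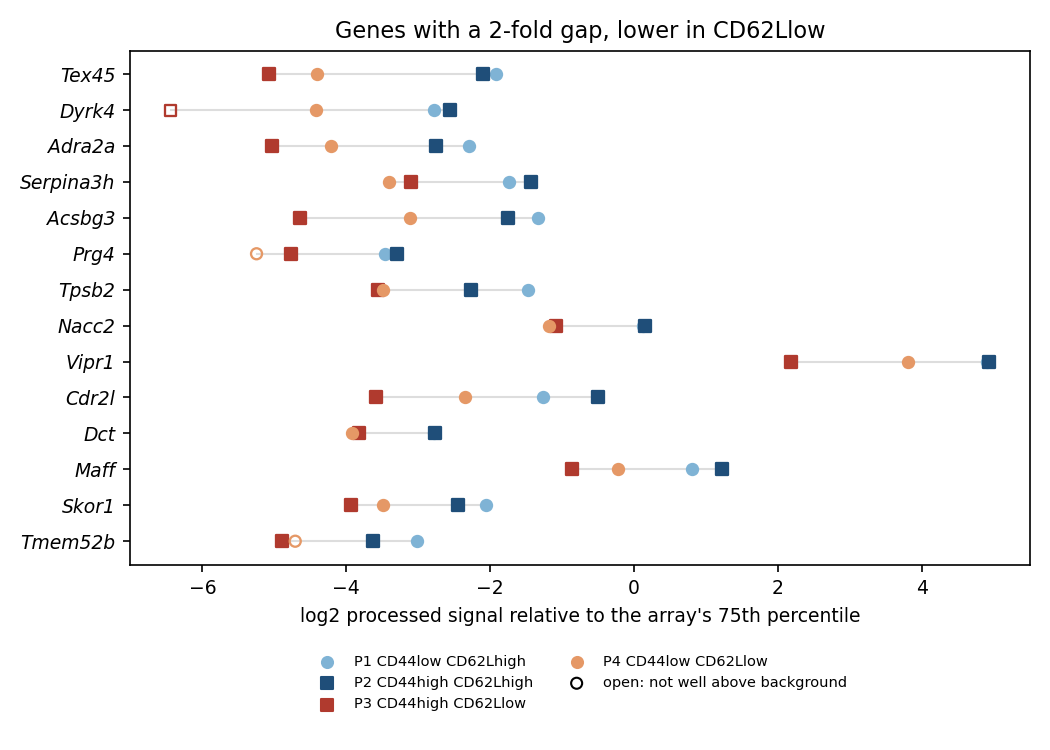
Level on each array, in log2 processed signal relative to the array's 75th percentile, for genes at least 2-fold lower in CD62Llow cells (Tex45 to Skor1 measured, Tmem52b a bound). Symbols are as for the higher genes: circles CD44low, squares CD44high, blues CD62Lhigh, reds CD62Llow, open symbols not well above background. Both red symbols lie to the left of both blue ones, and for Vipr1 the P4 symbol lies between P3 and the CD62Lhigh pair.

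Genes of lymph node homing and quiescence had no 2-fold gap, where 0.159% of all genes were at least 2-fold lower and 2.68% higher. At such shares a 0 says little of lists of this length. Of 11 homing and egress genes, all measured, 0 had a 2-fold gap, 6 had a smaller gap in the lower direction and 0 had one in the higher direction, where 29.7% and 20.1% of all genes had such gaps. The medians were -0.54 in both pairs, against -0.05 and -0.06 over all genes. S1pr1, the egress receptor for sphingosine 1-phosphate, stood at 4.54, 4.06, 3.30 and 3.82 (gap 0.25). Klf2, the factor that drives S1pr1, stood at 6.80, 6.34, 5.79 and 5.98 (gap 0.36), and Ccr7, the lymph node chemokine receptor, at 7.29, 6.74, 5.39 and 6.63 (gap 0.11, inside the spot error). In each of these the order was P1, P2, P4, P3, and P4 lay close below P2. Il6ra (0.66) and Cd55 (0.80), the IL-6 receptor and a complement regulator, had wider gaps. Quantile normalization left 5 of 11 with a lower gap and medians of -0.41 and -0.17.

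Among 25 naive and stem-like genes, all measured, 9 had a gap in the lower direction and 2 in the higher. The 9 are near the 29.7% of all genes with a lower gap, so the count says little of the list. Of the 25, 0 passed 2-fold, where 0.159% of all genes were at least 2-fold lower. The medians were -0.37 in the CD44low pair and -0.90 in the CD44high pair. Il7r, the IL-7 receptor chain that sustains resting T cells, stood at 6.03, 6.21, 5.14 and 5.07, a gap of 0.89 with P3 and P4 alike. Tcf7, which encodes TCF1, stood at 4.31, 4.13, 3.36 and 3.77 (gap 0.37) and Satb1, a chromatin organiser, at 5.38, 5.17, 2.80 and 4.91 (gap 0.27). Satb1 was thus 2.38 lower in P3 than in P2 but 0.47 lower in P4 than in P1. Lef1 read 6.16, 5.35, 3.89 and 5.43, so that P4 lay a little above P2 and there was no gap. Bcl6, a repressor of effector fate, went the other way, at 1.23, 1.03, 1.96 and 1.92 with a gap of 0.69.

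**Figure D4:**
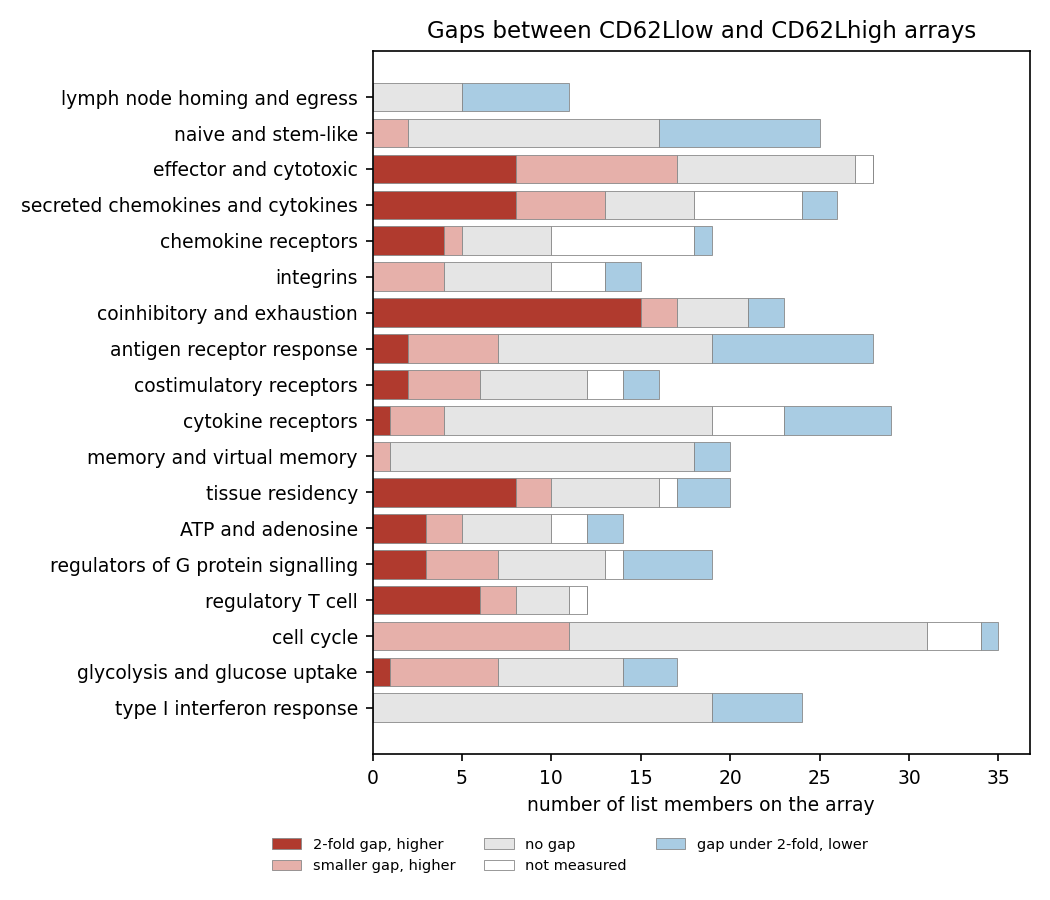
Members of each of the 18 gene lists on the array (horizontal axis, number of genes), split into genes with a 2-fold gap higher in CD62Llow, a smaller gap in that direction, no gap, genes not measured in either direction, and genes with a gap under 2-fold in the lower direction. The inhibitory list has 15 genes past 2-fold and the effector, secreted and residency lists 8 each. No list has a member 2-fold lower, where 0.159% of all genes were.

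The remaining lists had 0 or 1 gene past 2-fold, where 2.68% of all genes were higher by that much. Lists of this length hold few such genes at that share, so these counts say little of the lists. Of 32 measured cell cycle genes 0 passed, and 11 had a smaller gap in the higher direction (20.1% over all genes), among them Bub1b (0.90), a mitotic checkpoint kinase, and Mcm5 (0.54), a replication helicase subunit. The list's medians were 0.69 over 32 genes in the CD44low pair and 1.38 over 34 genes in the CD44high pair. At least 2-fold higher were 8 genes in the CD44low pair, 22 in the CD44high pair and 6 in both (4.1% over all genes). Mki67, which encodes the proliferation marker Ki-67, read -1.54, 0.26, 2.63 and 0.26, alike in P2 and P4 and highest in P3. Among 17 glycolysis genes Slc16a3, a lactate exporter, passed (1.03, or 0.55 with normexp). Of 12 measured integrin genes 0 passed, and Itgav (0.78) and Itga4 (0.55) had the widest gaps. Of 20 memory genes 0 passed: Eomes, a T-box factor of memory cells, read 1.31, 3.62, 3.77 and 3.30, low in P1 alone. Of 24 type I interferon response genes 0 had a gap in the higher direction and 5 had a small one in the lower (29.7% over all genes), among them Oasl2 (0.72) and Usp18 (0.62), while quantile normalization gave 3 and 4.

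Some genes moved the same way in both matched pairs yet had no gap, since the arrays of a side differed as much. There were 44 such genes at 2-fold in the higher direction and 5 in the lower. Tyrobp, an adaptor of natural killer receptors, read -5.25, -0.97, 3.35 and -1.11, higher by at least 3.56 in the CD44low pair and by 4.32 in the CD44high pair, with P2 just above P4. Zbtb32, a BTB-domain repressor of activated lymphocytes, read -5.04, 0.14, 3.53 and 0.13, and Smpdl3b and Itgax had the same order of arrays. Like Tyrobp, these genes were not well above background in P1. In the lower direction Ly6c2 read 6.59, 7.86, 6.63 and 5.40 and Ly6c1 6.54, 7.75, 6.58 and 5.38; these near-identical genes, which encode the memory marker Ly6C, were highest in P2 and lowest in P4. Igfbp4 and Aqp9 were the other leading members. Opposite differences were counted only among genes without clone names, disagreeing probes or spots in locally bright areas, unlike the counts above. Of those, 12 were at least 2-fold higher in the CD44low pair and lower in the CD44high pair, and 4 the reverse.

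Set along CD44 instead, the same 4 arrays gave fewer separated genes. Both CD44high arrays (P2 and P3) were at least 2-fold above both CD44low arrays (P1 and P4) for 122 of 12240 genes (0.997%), and below them for 62 of 12069 (0.514%). The CD62L split thus had 356 separated genes, nearly all higher, and the CD44 split 184, in both directions. Both splits use all 4 arrays, and the difference between these counts could not be tested.

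Most transcripts of the dendritic cell and class II list were brightest on the P3 array, H2-DMa being brightest on P1. Of 9 genes of this list measured in the higher direction, 0 had a 2-fold gap and 7 a smaller one (20.1% over all genes), and 5 were at least 2-fold higher in both pairs (4.1% over all genes). The median difference was 1.25 over 9 genes in the CD44low pair and 4.91 over 12 genes in the CD44high pair. H2-Ab1, a class II chain, read -0.60, 1.09, 6.44 and 1.33, a gap of 0.24, and Cd74, the invariant chain, -0.41, 0.03, 5.66 and 0.83, a gap of 0.81. The summed signal of the 13 class II and dendritic genes, relative to the array's 75th percentile, was 110 and 122 on the CD62Lhigh arrays, 355 on P3 and 128 on P4. Mgl2, at 6.70, 6.83, 6.99 and 6.87, carried most of that sum on P1, P2 and P4. Without it, a choice made after its values were seen, the remaining 12 genes summed to 6.54 and 8.69 on the CD62Lhigh arrays, 227 on P3 and 10.8 on P4. Clec9a and Xcr1, which define type 1 dendritic cells, were well above background on P3 alone.

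Across the 14 marker lists 7 entries passed 2-fold in the higher direction, where 2.68% of all genes did. They were Foxp3 and Ctla4 (of 4 measured CD4 genes), Maf (of 4 gamma delta genes) and Kit and Klrg1 (of 5 innate lymphoid genes). Prdm1 (of 6 plasma cell genes) and Cd24a (of 8 type 1 dendritic genes) were the others. Lists this short cannot be set against that share. Kit, the stem cell factor receptor, read -4.06, -4.70 (not well above background), -0.85 and -0.10, a gap of 3.21 with P4 above P3. Of 9 measured natural killer genes 0 passed, again too short a list to set against 2.68% of all genes. Ncr1, which defines natural killer cells, was not well above background on any array. The list's median difference was 2.91 over 9 genes in the CD44low pair and 0.56 over 11 genes in the CD44high pair. The 9 CD8 T cell genes had medians of -0.16 and -0.11, which quantile normalization turned to 0.05 and 0.34. Hba-a1, a haemoglobin gene, read -3.15, -2.28, 1.92 and -1.74, again highest in P3, with a gap of 0.54. The part of such cells in the 337 higher genes was not tested.

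**Figure D5:**
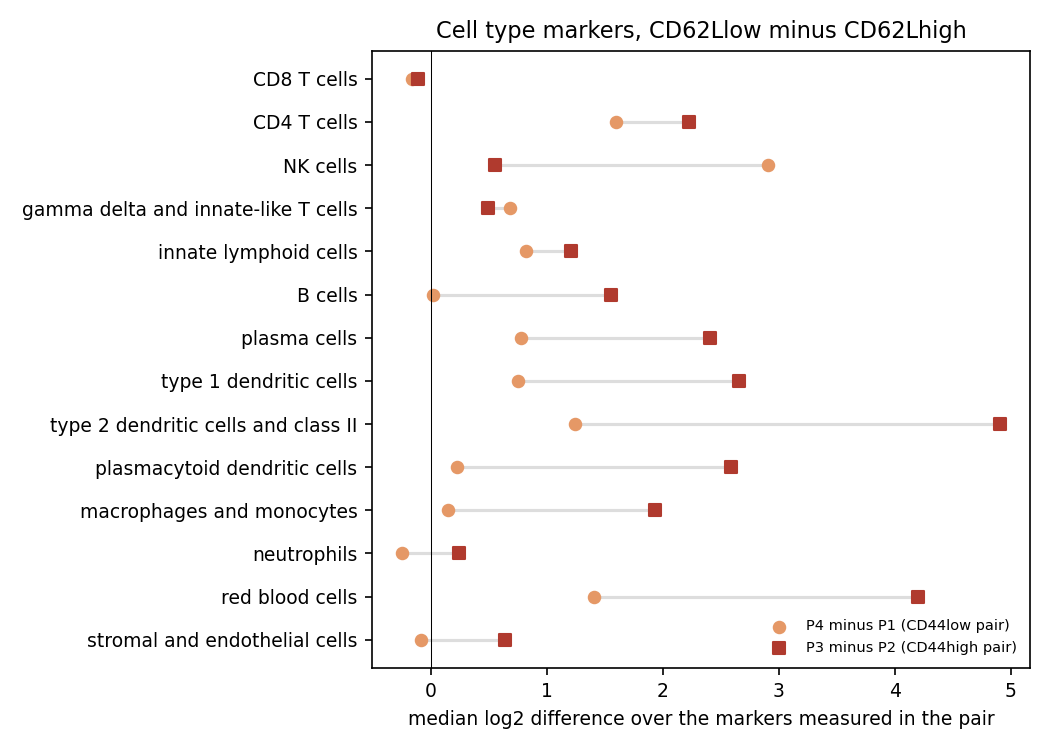
Median log2 difference between CD62Llow and CD62Lhigh arrays over the markers of each cell type measured in the pair, for P4 minus P1 (circles, CD44low pair) and P3 minus P2 (squares, CD44high pair). CD8 T cell genes lie at -0.16 and -0.11 (0.05 and 0.34 under quantile normalization); class II genes reach 4.91 and red cell genes 4.20 in the CD44high pair against 1.25 and 1.41 in the CD44low pair, while the natural killer list is the one with its larger median in the CD44low pair by a wide margin (2.91 over 9 genes against 0.56 over 11).

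Promoters of leading genes are shown because these genes shared a pattern over the 4 arrays, higher in both CD62Llow subsets than in either CD62Lhigh one. Gzmb, Gzma, Havcr2 and Adgrg1 were picked for windows that hold AP-1 or RUNX matches, and Csf1 and Cx3cr1 show leading genes whose windows hold neither. Each line gives the 250 bases before the transcription start, 5′ to 3′ in the direction of transcription, from RefSeq on GRCm38.p6. Capitals mark matches to AP-1 (TGANTCA), RUNX (TGTGGTT) and KLF (CCNCNCCC) motifs on either strand, where N is any base. The windows are chr14:56262335-56262584 on the minus strand for Gzmb, chr13:113100982-113101231 on the minus strand for Gzma, chr11:46454681-46454930 on the plus strand for Havcr2, chr3:107760470-107760719 on the minus strand for Csf1, and chr9:120068297-120068546 on the minus strand for Cx3cr1. For Adgrg1 the downstream of 2 starts is shown, chr8:94984149-94984398 on the plus strand; the window of the upstream start, chr8:94976859-94977108, holds KLF matches and no AP-1 or RUNX match.
Gzmb: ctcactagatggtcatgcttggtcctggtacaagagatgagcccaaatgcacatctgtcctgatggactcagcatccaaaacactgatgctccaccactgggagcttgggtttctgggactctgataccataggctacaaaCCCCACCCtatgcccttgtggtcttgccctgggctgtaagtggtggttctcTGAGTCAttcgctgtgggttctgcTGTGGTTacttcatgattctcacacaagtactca
Gzma: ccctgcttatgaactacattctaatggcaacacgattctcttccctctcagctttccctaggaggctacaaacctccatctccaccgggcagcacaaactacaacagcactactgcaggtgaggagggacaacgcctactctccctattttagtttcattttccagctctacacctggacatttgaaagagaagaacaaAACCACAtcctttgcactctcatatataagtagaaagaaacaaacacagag
Havcr2: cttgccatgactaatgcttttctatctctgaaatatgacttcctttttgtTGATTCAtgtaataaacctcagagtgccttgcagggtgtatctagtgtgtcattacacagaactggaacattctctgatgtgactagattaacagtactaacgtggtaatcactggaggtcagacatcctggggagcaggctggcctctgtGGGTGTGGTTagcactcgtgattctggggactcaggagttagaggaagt
Adgrg1: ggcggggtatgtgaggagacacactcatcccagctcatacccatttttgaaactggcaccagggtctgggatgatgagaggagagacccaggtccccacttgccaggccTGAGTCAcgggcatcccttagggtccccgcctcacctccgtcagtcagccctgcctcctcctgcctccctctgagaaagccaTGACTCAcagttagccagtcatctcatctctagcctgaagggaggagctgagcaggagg
Csf1: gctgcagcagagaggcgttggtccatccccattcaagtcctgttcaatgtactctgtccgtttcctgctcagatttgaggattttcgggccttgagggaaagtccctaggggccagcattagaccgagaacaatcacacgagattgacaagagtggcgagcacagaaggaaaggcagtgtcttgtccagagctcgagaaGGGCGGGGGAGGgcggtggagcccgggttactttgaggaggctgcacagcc
Cx3cr1: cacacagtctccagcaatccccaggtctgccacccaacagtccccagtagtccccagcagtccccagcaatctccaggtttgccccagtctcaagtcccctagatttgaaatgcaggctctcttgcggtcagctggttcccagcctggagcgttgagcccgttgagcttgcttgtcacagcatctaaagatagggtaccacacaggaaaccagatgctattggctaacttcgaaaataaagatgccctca
In Gzmb the AP-1 match begins 58 bases before the start and the RUNX match 34 bases before it. Gzma has a RUNX match on the other strand, 51 bases before the start. In Havcr2 the KLF match, on the other strand, overlaps the RUNX match. The Adgrg1 window shown holds AP-1 matches at 141 and 59 bases. Csf1 has overlapping KLF matches on the other strand, the first 51 bases before the start. Cx3cr1 has none of the motifs searched, and neither have the windows of Gzmk and Cela1.

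The same motifs were counted over the promoters of all separated genes. AP-1 matched 24 (6.88%) of 349 promoters of higher genes (250 of the 337 genes had one in the table), 4.51% of 12843 promoters of measured genes and 6.75% of all 32851. RUNX matched 20 of the 349 (5.73%), 3.42% and 4.40% of the same sets, and KLF 61.3%, 61.3% and 45.9%. T-box (AGGTGTNA) matched 3, TCF and LEF (CTTTGAT) 8 and NR4A (AAAGGTCA) 1 of the 349, too few to set against the shares among measured genes (2.20%, 2.37% and 1.01%), as are the 20 promoters of lower genes. A match is a description of the letters in this window and not a binding site.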

How the data were processed

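RNA from the 4 sorted subsets was labelled with Cy3 and hybridised to 1 Agilent array each, per the labels' protocols. The authors used Agilent Feature Extraction 11.0.1.1 to read spot intensity, per the submitters' processing notes; the processed signal is background-subtracted and detrended but not scaled between arrays, per the file headers. The authors' deposited value table gives 26188 probes in log2, each array with a median of 8.85. Alike sorted values in every column, and correlations of 0.999 or more with the scanner signal, marked it as quantile normalised, not centred per probe; the sources used here name no tool for it.

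Outlier spots (122 to 152 per array) were left out; 0 spots were saturated. Each array was scaled in log2 to its 75th percentile over 59305 non-control spots, which was 481, 480, 799 and 453 for P1 to P4. RefSeq accessions named 32988 of 56597 probes (58.3%) for 22909 genes through a table of assembly GRCm38.p6. Of a gene's probes, the one with the highest mean was used, and 4 of the 79 higher genes with several measured probes had probes that disagreed in sign. A gene entered a direction if well above background on both arrays of the brighter side, and dim values were set to the array's lowest signal that was well above background. Genes with a gap of at least 2-fold were counted by size alone. A locally bright area is one where more spots within 32 position units were raised than 1% of spots would have; 13 higher and 3 lower genes had a spot there on the brighter side.

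The comparison, the members and the 18 gene lists and 14 marker lists were chosen with earlier results of these data known. The text names, in each direction, up to 14 genes with the largest measured gaps and 6 with the largest bounds, leaving out clone names, disagreeing probes and bright areas. It also names up to 4 members per list past 2-fold, sort and lineage genes, the genes nearest the threshold, 4 genes each with opposite or unseparated differences, and list members as examples; some genes this rule takes in are not reported here. Promoters were matched by symbol for 62 of the 84 genes the rule takes in. Counting was tested on simulated data with known gaps, in which every gene was well above background on all 4 arrays. The filter, the floor and the bounds were therefore not tested. Alternatives were quantile and median scaling, normexp (offset 50, on median signals), the authors' values, other filters, probe rules and side rules, each array left out, and thresholds of 4-fold and 0. Python 3.11.15, numpy 2.4.6, pandas 2.3.3, scipy 1.17.1, matplotlib 3.10.9, R 4.3.3 and limma 3.58.1 were used.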

Additional observations from a re-analysis of the deposited data

Results flagged for a closer look

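Several genes and lists differed in opposite directions in the CD44low pair (P4 minus P1) and the CD44high pair (P3 minus P2). With 1 array per subset these differences were not tested. Krt13, a keratin, differed by 3.115 in the CD44low pair and by -4.445 in the CD44high pair, and it was not well above background in P1 or P3, so both are bounds in size. The same pattern was seen in natural killer receptor genes of the Ly49 family, whose members are close in sequence: Klra7 (2.699 and -3.193), Klra16 (2.48 and -3.643) and Klra4 (1.526 and -3.676), all brightest in P2, though Klra4 was not well above background in P1 and its first difference is a bound. The reverse held for Alox5ap, the activator of leukotriene synthesis (-1.648 and 4.778), Aunip (-1.347 and 1.976), Rab7b (-1.212 and 1.441) and Flt1 (-1.627 and 1.00), where P3 was high and P4 low; Aunip was not well above background in P4, so its first difference is a bound in size.

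Among lists, the median of the interferon response list was -0.42 in the CD44low pair and 0.1485 in the CD44high pair, and neutrophil genes one of -0.2461 and 0.2421. The antigen receptor response genes had medians of 0.2988 and -0.08424, and the costimulatory receptors -0.03642 and 0.5492. Under quantile normalization the smaller value of each of the antigen receptor and costimulatory lists changed sign, to 0.18 and 0.07. Stromal and endothelial genes had medians of -0.08344 and 0.6413, over 2 and 6 measured genes.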

How the results depend on the processing

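The counts of 337 genes at least 2-fold higher and 19 lower in CD62Llow cells kept their balance, with more genes higher, under every alternative at that threshold, and stayed within 1.5 times under quantile normalization, median scaling, the mean over probes, outlier spots kept and bright areas left out. They became 182 and 4 with normexp, 170 and 12 with the authors' values, 163 higher with only genes well above background on all 4 arrays, 511 and 106 without the filter or the floor, 515 and 65 when matched on CD44, 886 and 249 for the difference of the side means, 119 and 2 at 4-fold, and 2531 and 3561 for any gap. Leaving out 1 array, which loosens the rule, gave 412 to 1342 higher and 44 to 441 lower. The share of higher genes among calls moved from 94.7% to 82.8% with no filter, 78.1% for side means, 65.0% without P1, 77.5% without P2 and 75.3% without P4. Of 61 named genes past 2-fold, all kept a gap above 0 under every alternative that measured them and 44 stayed past 2-fold. Leaving out an array, matching on CD44, side means and dropping the floor cannot shrink a gap, and filters leave it unchanged. Only scaling, background, spot and probe settings could shrink it. Past 2-fold stayed 46 of 61 with normexp, 56 with the mean over probes and 58 with quantile normalization. Median scaling kept 60, and the authors' values 39 of 41. No paired analysis was possible because each subset has 1 array. Levels below -3, where 50 of the 337 genes had their lower CD62Llow array, are the least precise.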

Other observations

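Outside the lists, several groups of functionally related genes were among the 337 higher ones; these examples were chosen after their values were seen, and their number among genes of the same function was not counted. Enzymes that build or sulfate the glycans of selectin ligands and related chains were present. Gcnt1, which makes core 2 branches, was not well above background in P1 or P2 and read 0.00 in P3 and -0.38 in P4, a bound of 4.21. Chst2, a sulfotransferase, read -6.18 (not well above background), -3.55, 0.29 and -0.53 (gap 3.02), and B4galt4 (a bound of 4.03) and B3galt5 (3.29), both galactosyltransferases, were higher as well. Inflammatory caspases were bright: Casp1 read -0.40, -0.17, 3.81 and 2.62 (gap 2.79) and Casp4 -1.15, -0.84, 3.03 and 1.40 (gap 2.24). Nlrp1b, an inflammasome sensor, had a gap of 1.27. Of the cyclin-dependent kinase inhibitors, Cdkn2b had a gap of 1.80 and Cdkn2a a bound of 1.63. Cish, a suppressor of cytokine and antigen receptor signalling, read -0.22, -0.23, 2.71 and 2.22 (gap 2.44). Sema7a, a membrane semaphorin, read -3.67, -2.09, 1.48 and 1.50 (gap 3.56).

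Among measured probes without a gene name here, 96 of 9507 (1.01%) were at least 2-fold higher in CD62Llow cells and 30 of 9112 (0.329%) at least 2-fold lower.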
